A study of Mus musculus with 10 samples.

Results

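Replacement histone variants were described by 9 genes, taken by their symbols from the 12803 genes of one expression table: H3f3a, H3f3b, H2afz, H2afv, H2afx, H2afj, H2afy, H1f0 and H1fx. All 9 were measured. The table held RNA levels of mouse skeletal muscle stem cells, gated on VCAM+ and on the absence of CD45, CD31 and Sca1 (CD45- CD31- Sca1-), from limb muscle of young male C57BL/6 mice, with each library made from 1 animal. Of the 10 libraries, 4 came from cells given Tubastatin A at 40 µM in DMSO during 24 h of culture, 3 from cells kept for 24 h with an equal volume of DMSO (vehicle), and 3 from fresh cells at 0 h. Tubastatin A inhibits HDAC6, a mainly cytoplasmic deacetylase. Both cultured groups were kept in Ham's F-10 medium with horse serum on coated plastic, and no group is labelled with a mutant allele or transgene. The Tubastatin A and vehicle cultures address whether the inhibitor keeps these cells quiescent, and the fresh cells give the state before culture.

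Most histones are made during S phase, when new nucleosomes are assembled behind the replication fork, and their genes lack introns and yield mRNAs without a poly(A) tail. Replacement variants are made throughout the cell cycle, also in cells that do not divide, and most of their mRNAs are polyadenylated. H3f3a and H3f3b both encode the H3.3 protein, which is placed into transcribed genes by HIRA and into heterochromatin and telomeres by DAXX and ATRX. H2afz and H2afv encode the H2A.Z.1 and H2A.Z.2 proteins, which remodellers of the SRCAP and TIP60 complexes exchange into nucleosomes at promoters. H2afx encodes H2A.X, which is phosphorylated around DNA breaks, and H2afj encodes H2A.J, known to accumulate in senescent cells with DNA damage. H2afy encodes macroH2A1, which has a large globular domain and is enriched on the inactive X chromosome, and H1f0 and H1fx encode the linker histones H1.0 and H1.10. H1.0 is known for accumulating in cells that stop dividing and for rising with deacetylase inhibitors such as butyrate in other cell types.

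The H3.3 genes are shown by their coding sequences because the RNA of 2 genes for 1 protein was counted apart here. In GENCODE M21 (GRCm38), the coding sequences of H3f3a (chr1:180800832-180813943, - strand) and H3f3b (chr11:116021912-116027962, - strand) were each 411 bases long and differed at 95 bases. These differences lay in 83 of 137 codons, stop codon included, and all 83 encoded the same amino acid in both genes. The first 150 coding bases, 5′ to 3′, are given with the 32 bases that differ between the genes in capitals.
H3f3a: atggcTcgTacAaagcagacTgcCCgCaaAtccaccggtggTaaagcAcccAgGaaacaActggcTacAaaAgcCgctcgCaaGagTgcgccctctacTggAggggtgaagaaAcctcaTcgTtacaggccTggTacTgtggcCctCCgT
H3f3b: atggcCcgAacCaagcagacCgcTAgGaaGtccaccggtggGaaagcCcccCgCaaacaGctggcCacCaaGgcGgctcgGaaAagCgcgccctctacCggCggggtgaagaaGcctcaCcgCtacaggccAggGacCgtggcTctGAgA
The longest run of equal bases between their transcripts was 23, against reads of 150 bases. The related H3f3c, annotated as a processed pseudogene, differed from H3f3a at 4 of 411 coding bases and shared a run of 267 bases with it, so the split of reads between H3f3a and H3f3c is uncertain.

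The H2A.Z genes are shown because their levels moved apart in culture. The coding sequences of H2afz (chr3:137864487-137866922, + strand) and H2afv (chr11:6427229-6444443, - strand) were 387 bases long and equal at 306 of them, with 3 codons that encoded another amino acid. Their first 150 coding bases have the 34 differing bases in capitals.
H2afz: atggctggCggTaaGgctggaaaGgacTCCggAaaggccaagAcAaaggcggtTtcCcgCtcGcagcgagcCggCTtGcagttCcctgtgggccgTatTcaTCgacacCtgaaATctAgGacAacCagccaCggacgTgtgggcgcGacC
H2afv: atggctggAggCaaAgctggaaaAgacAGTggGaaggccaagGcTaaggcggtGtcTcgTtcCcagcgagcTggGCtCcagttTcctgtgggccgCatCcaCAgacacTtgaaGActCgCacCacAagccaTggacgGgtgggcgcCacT
The longest run shared by their transcripts was 14 bases. The 250 bases before the start that RefSeq annotates for each gene, from the promoter table of RefSeq on GRCm38.p6, are given on the gene's strand with CCAAT, read on either strand as CCAAT or ATTGG, in capitals. They span chr3:137864237-137864486 for H2afz and chr11:6444444-6444693 for H2afv.
H2afz: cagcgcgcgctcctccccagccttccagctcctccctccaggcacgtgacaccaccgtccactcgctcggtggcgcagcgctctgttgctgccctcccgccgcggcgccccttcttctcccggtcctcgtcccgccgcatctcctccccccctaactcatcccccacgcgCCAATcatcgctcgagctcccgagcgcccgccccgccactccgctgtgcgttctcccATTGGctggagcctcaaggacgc
H2afv: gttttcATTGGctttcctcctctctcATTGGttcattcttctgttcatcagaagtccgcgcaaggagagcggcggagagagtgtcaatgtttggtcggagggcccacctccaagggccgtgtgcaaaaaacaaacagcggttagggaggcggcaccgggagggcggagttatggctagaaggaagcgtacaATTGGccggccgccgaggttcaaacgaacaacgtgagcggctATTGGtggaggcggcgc
The window of H2afz held 2 matches and that of H2afv held 4. Promoters were matched for 8 of the 9 genes, all but H2afx, and the windows of H3f3b, H2afj and H3f3a held 4, 3 and 1 matches while those of H2afy, H1f0 and H1fx held 0. RefSeq's start can lie inside the GENCODE gene: the window of H3f3b lay within that gene's span, with 214 of its 250 bases in GENCODE exons, those of H3f3a and H2afy lay within theirs, and those of H1fx and H2afj overlapped theirs. The windows of H2afz and H1f0 lay before their own GENCODE genes, yet 138 and 250 of their bases lay in GENCODE exons. Among 32851 promoter windows of the same length, 33.8% held at least 1 match and 2.79% held 3 or more. The H3f3b window also held 1 TATAAA, searched on both strands and found in 12.4% of windows. A match is a run of letters and not a measured binding site.

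RPKM relates the reads of a gene to its exon length and a scaled library size. Whole reads could be recovered from the values, 37020354 to 54558173 per library. In most libraries this is more than the depth the labels state, and whether single reads or pairs were counted is not given in the sources used here. The read counts of the 9 genes lay between 154 (H1fx, a fresh library) and 154079 (H3f3b, a fresh library). In the authors' scaling, reads divided by scaled size were 0.818 to 0.879 in Tubastatin A, 0.897 to 0.917 in vehicle and 1.37 to 1.39 in fresh libraries, so values against fresh cells rest on that scaling more than values between the cultures. Among 10 muscle stem cell markers the summed RPKM was 786 to 864 in Tubastatin A, 1556 to 1781 in vehicle and 2518 to 3636 in fresh libraries. Most of the sum in the cultures was Myod1, at means of 539 in Tubastatin A and 1186 in vehicle. Between the cultures 2 of these 10 were called higher in Tubastatin A and 7 lower (limma adjusted p under 0.05), where 59.3% of all genes were called. Vcam1, the sorting marker, averaged 4.36 ± 0.417 RPKM in Tubastatin A, 34.0 ± 2.24 in vehicle and 180 ± 13.7 in fresh cells (SD, n = 4, 3 and 3). Fibro-adipogenic markers (7 genes) summed to 86.0 to 117 RPKM in Tubastatin A, 63.8 to 80.8 in vehicle and 1640 to 2104 in fresh libraries. Most of the fresh sum was Gsn, at a mean of 1362 RPKM, and Col3a1, at 407, while Pdgfra averaged 0.117. In Tubastatin A and vehicle, Gsn averaged 97.4 and 34.7 RPKM and Col3a1 6.50 and 38.0 RPKM. Endothelial markers (9 genes) summed to 6.25 to 6.96 RPKM in Tubastatin A, 3.34 to 4.55 in vehicle and 47.7 to 58.4 in fresh libraries. Of 7 immune markers 2 were in the table, at summed levels of 2.51 to 3.89 RPKM in Tubastatin A, 0.691 to 0.890 in vehicle and 5.08 to 8.32 in fresh libraries. Mature myofibre markers (7 genes) summed to 5.19 to 383 RPKM in Tubastatin A, highest in replicate 2, 16.8 to 25.0 in vehicle and 50.6 to 60.9 in fresh libraries. Pericyte and smooth muscle markers (6 genes) summed to 11.6 to 62.3 RPKM in Tubastatin A, 175 to 241 in vehicle and 198 to 243 in fresh libraries, and Acta2 alone averaged 23.0 ± 25.1 RPKM in Tubastatin A, 212 ± 33.7 in vehicle and 212 ± 26.1 in fresh cells. Tenocyte markers (4 genes) summed to 4.77 to 11.6 RPKM in Tubastatin A, 66.4 to 76.8 in vehicle and 36.0 to 49.4 in fresh libraries, with Scx at 4.14 ± 3.09 RPKM in Tubastatin A, 70.5 ± 4.95 in vehicle and 10.0 ± 4.07 in fresh cells. Both of these sums were thus lower in Tubastatin A than in vehicle libraries, with Acta2 and Scx as most of the vehicle sums. The lists as a whole were mixed between the cultures. Of the pericyte and smooth muscle genes 1 was called higher and 2 lower in Tubastatin A, and of the tenocyte genes 1 higher and 1 lower. The part of these markers in the results below was not tested. In sorted bulk cells, fewer cells of a type and less RNA per cell cannot be told apart.

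Under Tubastatin A the RNAs for H2A.Z.1, H2A.X, H2A.J and macroH2A1 were each 2.63 to 3.60 times less abundant than in vehicle cultures, by group means. The RNAs for H2A.Z.2 and H3.3 were not called different between the cultures, and in vehicle cultures they were 2.04 to 3.72 times less abundant than in fresh cells. The linker histone RNAs of H1f0 and H1fx passed the test between the cultures in neither direction. By limma on log2(RPKM + 1) across all genes, 4 of 9 genes were called at an adjusted p under 0.05 between Tubastatin A and vehicle, 0 higher and 4 lower, where 59.3% of all genes were called (29.6% higher and 29.7% lower). Groups did not overlap for 6 of 9, against 68.6% of all genes, and the median log2 difference of the 9 was -0.42, against 0.02 over all genes. The number of genes called was thus not above the background; only the side was uneven, with all 4 calls lower.

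**Figure D1:**
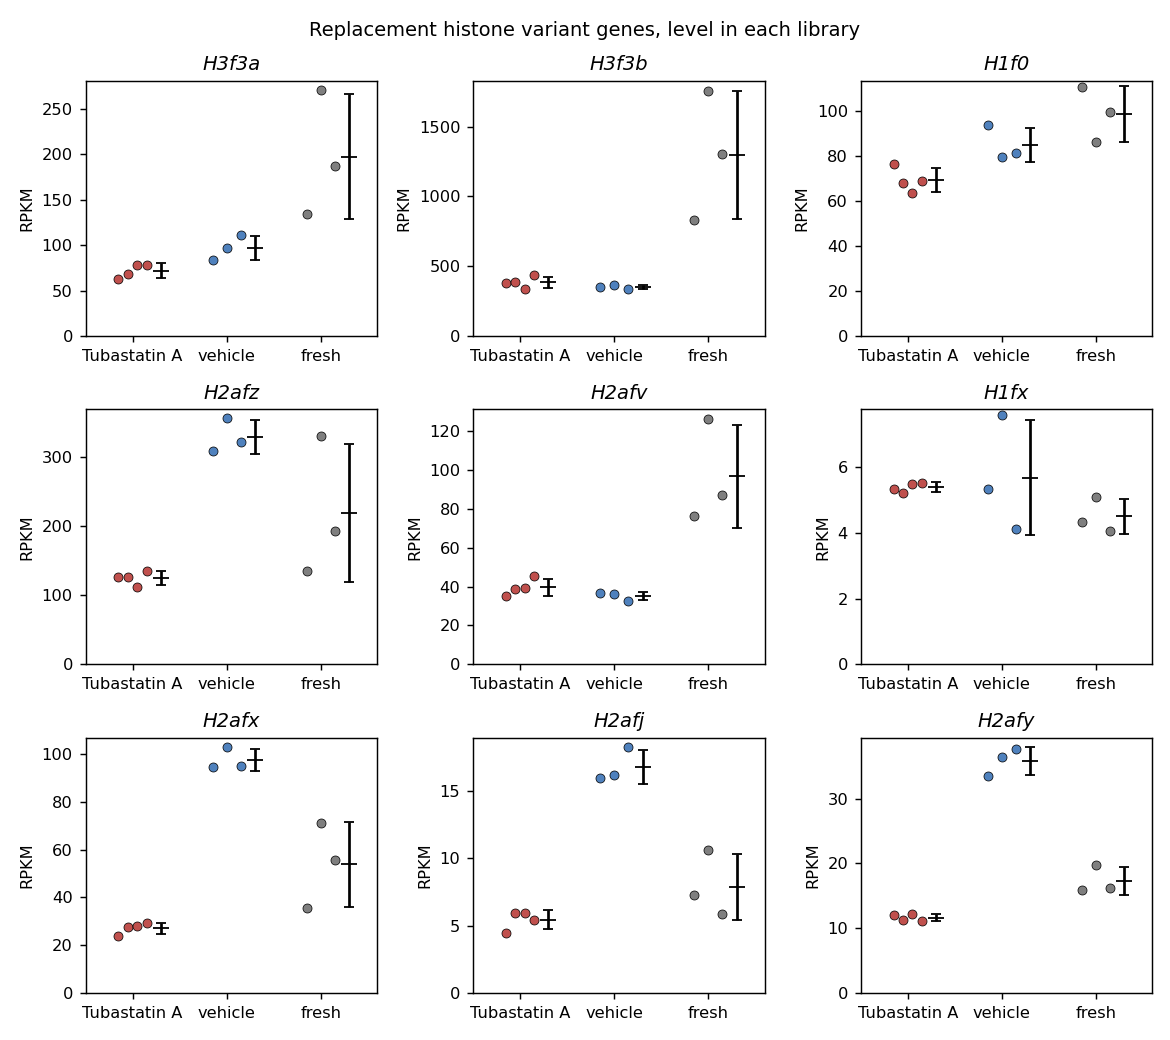
RPKM of each gene in each library (points) with the group mean and SD (bars) for 4 Tubastatin A, 3 vehicle and 3 fresh libraries, each panel on its own linear axis from 0. H2afz, H2afx, H2afj and H2afy stand highest in the vehicle cultures, with 1 fresh library near them for H2afz, while H3f3a, H3f3b and H2afv stand highest in fresh cells.

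H2afz, for H2A.Z.1, had 126.6, 126.2, 112.5 and 135.8 RPKM in the 4 Tubastatin A libraries, against 309.1, 357.0 and 322.5 RPKM in the vehicle libraries. The groups were far apart, with the highest Tubastatin A value below the lowest vehicle value. Its log2(RPKM + 1) differed by -1.39 ± 0.24 (SE; limma adjusted p = 0.00035). Fresh cells had 135.0, 330.4 and 192.9 RPKM, so that 1 fresh library lay within the vehicle range and another within the Tubastatin A range. Vehicle cultures were higher than fresh cells by 0.68 on the log2 scale (limma adjusted p = 0.032), a call lost when any 1 of the vehicle libraries (0.62 to 0.72), fresh replicate 1 (0.38) or fresh replicate 3 (0.64) was left out, and also in the fit of those 2 groups alone (limma adjusted p = 0.10).

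H2afx, for H2A.X (chr9:44334694-44336077, + strand), had 23.7, 27.8, 27.8 and 29.1 RPKM under Tubastatin A, against 94.6, 102.9 and 94.99 RPKM in vehicle cultures. This was the largest difference among the 9 genes, -1.81 ± 0.19 (SE; limma adjusted p = 6.7e-06). In fresh cells it had 35.5, 71.0 and 55.5 RPKM, between the cultured groups and overlapping neither. Vehicle cultures were higher than fresh cells by 0.89 (limma adjusted p = 0.0018).

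H2afj, for H2A.J (chr6:136808244-136810074, + strand), was expressed at a low level and was again lower under Tubastatin A. It had 4.45, 5.94, 5.95 and 5.42 RPKM under Tubastatin A, 15.9, 16.2 and 18.3 RPKM in vehicle cultures and 7.26, 10.6 and 5.84 RPKM in fresh cells. Every vehicle value exceeded every other value, and the Tubastatin A and fresh ranges overlapped. The difference from vehicle was -1.47 ± 0.17 (SE; limma adjusted p = 1.5e-05), and vehicle cultures exceeded fresh cells by 1.03 (limma adjusted p = 0.00029). Its coding sequence shared runs of at most 51 bases with H2afx.

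H2afy, for macroH2A1 (chr13:56073619-56136361, - strand), had 12.0, 11.2, 12.2 and 11.1 RPKM under Tubastatin A, 33.5, 36.4 and 37.6 RPKM in vehicle cultures and 15.8, 19.7 and 16.2 RPKM in fresh cells. No pair of groups overlapped. The difference between the cultures was -1.54 ± 0.10 (SE; limma adjusted p = 2.1e-07), and vehicle cultures exceeded fresh cells by 1.02 (limma adjusted p = 6.6e-06). The gene has splice forms that this table sums.

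H2afv, for H2A.Z.2, did not follow H2afz. It had 34.9, 38.7, 39.3 and 45.5 RPKM under Tubastatin A and 36.6, 36.1 and 32.7 RPKM in vehicle cultures, which overlapped, with a difference of 0.16 (95% interval -0.19 to 0.51; limma adjusted p = 0.40). Fresh cells had 76.3, 126.2 and 87.2 RPKM, above every cultured library. Vehicle cultures differed from fresh cells by -1.40 ± 0.17 on the log2 scale (SE; limma adjusted p = 1.6e-05), and Tubastatin A cultures differed from fresh cells by -1.24 (limma adjusted p = 3.0e-05).

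Among the H3.3 genes, H3f3b was the most abundant of the 9 RNAs in all 3 groups. It had 377, 384, 340.0 and 434 RPKM under Tubastatin A and 350.0, 362 and 334 RPKM in vehicle cultures, so the cultured groups overlapped. Fresh cells had 835, 1753 and 1304 RPKM, more than any cultured library. The cultures differed by 0.13 (95% interval -0.36 to 0.63; limma adjusted p = 0.64), and vehicle cultures differed from fresh cells by -1.83 ± 0.24 (SE; limma adjusted p = 3.2e-05).

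H3f3a had 62.3, 68.5, 78.3 and 78.3 RPKM under Tubastatin A, 83.1, 96.7 and 110.5 RPKM in vehicle cultures and 133.8, 270.0 and 187.2 RPKM in fresh cells. No groups overlapped, and Tubastatin A was the lowest. The difference between the cultures was -0.42 (95% interval -0.87 to 0.03) and was not called (limma adjusted p = 0.098), but it was called in the fit of those 2 groups alone (limma adjusted p = 0.011) and when fresh replicate 1 or 2 was left out. Vehicle cultures differed from fresh cells by -0.97 (limma adjusted p = 0.0020). H3f3c, whose reads cannot be kept fully apart from H3f3a, averaged 3.89 ± 0.264 RPKM under Tubastatin A, 4.84 ± 0.609 in vehicle and 10.8 ± 2.59 in fresh cells (SD, n = 4, 3 and 3).

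**Figure D2:**
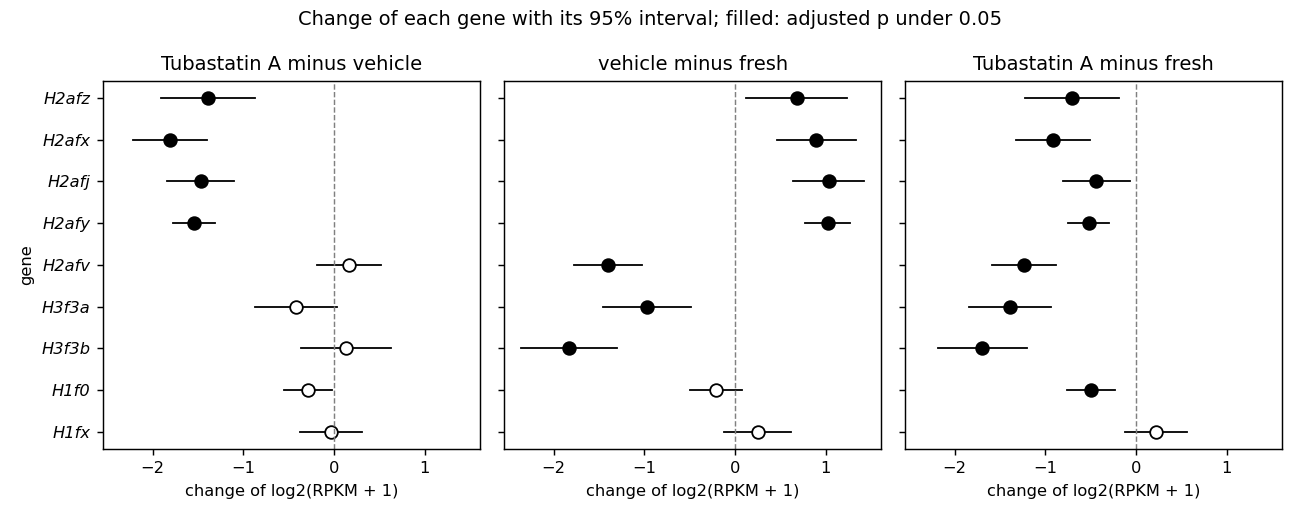
Difference of log2(RPKM + 1) for each gene (points) with its 95% interval (lines) in the 3 comparisons of limma, filled where the adjusted p was under 0.05. Between Tubastatin A and vehicle 4 genes were called, all lower; between vehicle and fresh 7 were called, 4 higher and 3 lower.

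The linker histone H1f0 (chr15:79028450-79030504, + strand) was not higher under Tubastatin A. It had 76.5, 68.0, 63.6 and 69.2 RPKM under Tubastatin A, against 93.8, 79.6 and 81.6 RPKM in vehicle cultures, and the highest Tubastatin A value lay below the lowest vehicle value. The difference was -0.29 ± 0.12 (SE; 95% interval -0.55 to -0.02) and missed the threshold after adjustment (limma adjusted p = 0.058). It was called, with the same sign, in the fit of those 2 groups alone, without the variance trend, under median-of-ratios scaling and without fresh replicate 1 or 2. Fresh cells had 110.8, 86.2 and 99.5 RPKM, which overlapped the vehicle values (vehicle minus fresh -0.21, limma adjusted p = 0.17; called, at -0.31, without fresh replicate 2).

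H1fx (chr6:87980421-87981637, - strand) was the lowest of the 9 RNAs in every group and rested on the fewest reads. It had 5.35, 5.20, 5.50 and 5.53 RPKM under Tubastatin A, 5.34, 7.58 and 4.13 RPKM in vehicle cultures and 4.35, 5.09 and 4.07 RPKM in fresh cells. The vehicle range overlapped both others, and none of the 3 comparisons was called in the authors' scaling. The difference between the cultures was -0.03 (95% interval -0.38 to 0.31; limma adjusted p = 0.88), and it was 0.17 without vehicle replicate 2, the highest of its group. Vehicle minus fresh was 0.25 (limma adjusted p = 0.21) and was called, at 0.43, without vehicle replicate 3.

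Another linker histone gene moved far more. Hist1h1c, the gene of H1.2 in the replication-coupled clusters, had 16.3, 11.4, 14.6 and 14.6 RPKM under Tubastatin A, 0.641, 1.59 and 2.32 RPKM in vehicle cultures and 17.1, 21.9 and 24.0 RPKM in fresh cells. Its difference between the cultures was 2.65 ± 0.22 (SE; limma adjusted p = 1.0e-06), opposite in sign to that of H1f0. Hist1h1b, the gene of H1.5, averaged 0.155 ± 0.0736 RPKM under Tubastatin A, 5.18 ± 1.15 in vehicle and 0.648 ± 0.278 in fresh cells (SD, n = 4, 3 and 3), a difference of -2.40 between the cultures (limma adjusted p = 7.8e-08). For both genes the values cover polyadenylated RNA only, and their mRNA without a poly(A) tail was not measured.

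**Figure D3:**
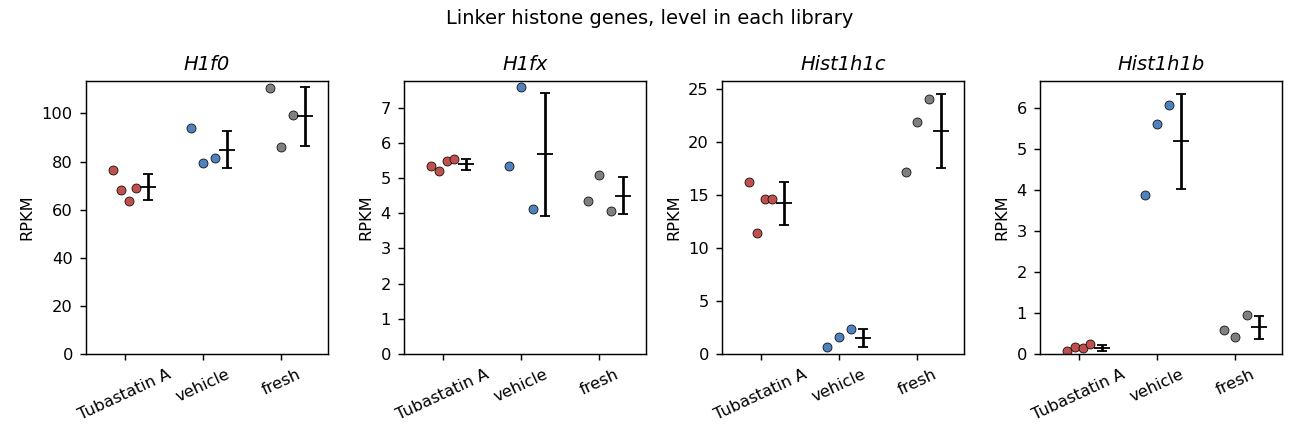
RPKM of 4 linker histone genes in each library (points) with the group mean and SD (bars), on linear axes from 0. H1fx differs little between Tubastatin A and vehicle, while each H1f0 value in Tubastatin A lies below each vehicle value. Hist1h1c is high in Tubastatin A and fresh libraries, and Hist1h1b is high in vehicle libraries.

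Ratios of paralogues within a library do not depend on how libraries are scaled. The ratio of H2afz to H2afv was 3.62, 3.26, 2.86 and 2.98 under Tubastatin A, 8.44, 9.89 and 9.86 in vehicle cultures and 1.77, 2.62 and 2.21 in fresh cells. The groups did not overlap: vehicle cultures had by far the highest ratio, and Tubastatin A lay between vehicle and fresh. The summed H2A.Z RNA was 164.9 ± 12.3 RPKM under Tubastatin A, 364.7 ± 25.0 in vehicle and 316.0 ± 126.6 in fresh cells (SD, n = 4, 3 and 3). H2afz made up on average 76.0% of it under Tubastatin A, 90.3% in vehicle and 68.4% in fresh cells.

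For H3.3, the ratio of H3f3a to H3f3b was 0.165, 0.178, 0.230 and 0.180 under Tubastatin A, 0.237, 0.267 and 0.331 in vehicle cultures and 0.160, 0.154 and 0.144 in fresh cells. Vehicle cultures again had the highest ratios; Tubastatin A came next, with replicate 3 close to the lowest vehicle value, and fresh cells were lowest. The summed H3.3 RNA was 455.5 ± 40.4 RPKM under Tubastatin A, 445.6 ± 12.8 in vehicle and 1494 ± 527 in fresh cells (SD, n = 4, 3 and 3). The cultured groups overlapped in this sum. The ratio of H2afj to H2afx was 0.186 to 0.214 in Tubastatin A, 0.158 to 0.192 in vehicle and 0.105 to 0.205 in fresh libraries, which overlapped. The ratio of H1f0 to H1fx was 11.6 to 14.3 in Tubastatin A, 10.5 to 19.8 in vehicle and 16.9 to 25.5 in fresh libraries, with the vehicle range overlapping both others. Ratios were described and not tested.

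**Figure D4:**
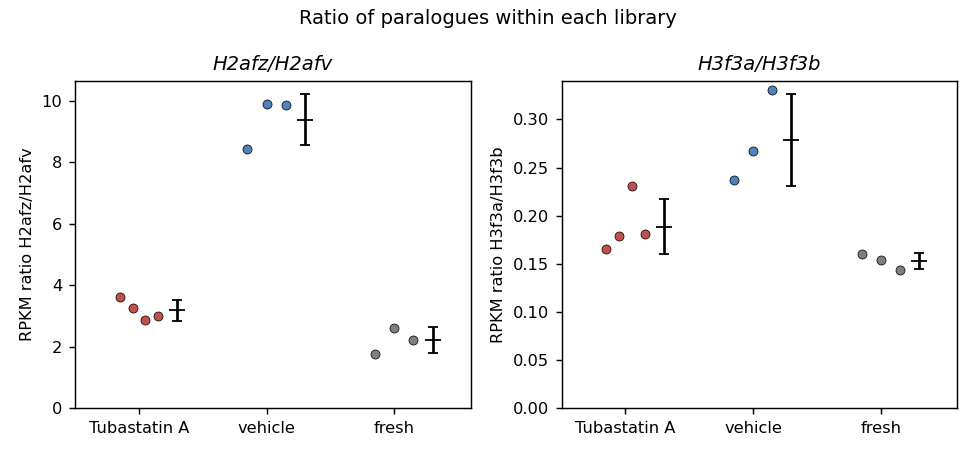
Ratio of RPKM of H2afz to H2afv (left) and of H3f3a to H3f3b (right) within each library (points), with the group mean and SD (bars), on linear axes from 0. Vehicle libraries stand highest in both panels, at 8.44 to 9.89 and 0.237 to 0.331.

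The order of the 9 RNA levels per length was the same under Tubastatin A and in fresh cells and differed in vehicle cultures. Under Tubastatin A it was H3f3b, H2afz, H3f3a, H1f0, H2afv, H2afx, H2afy, H2afj and H1fx, and the ranges of H3f3a and H1f0 overlapped, as did those of H2afj and H1fx. In vehicle cultures it was H3f3b, H2afz, H2afx, H3f3a, H1f0, H2afy, H2afv, H2afj and H1fx, with H3f3b and H2afz overlapping, at 348.8 ± 13.9 and 329.5 ± 24.7 RPKM (SD, n = 3). There the ranges of H2afx and H3f3a, of H3f3a and H1f0, and of H2afy and H2afv also overlapped. In fresh cells H2afz overlapped H3f3a, and H1f0 overlapped H2afv. Together the 9 genes made up 0.291% to 0.317% of the summed RPKM in Tubastatin A libraries, 0.373% to 0.401% in vehicle libraries and 0.342% to 0.613% in fresh libraries. Fresh replicate 2 held the highest fresh value of all genes but H1f0, for which it held the lowest.

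Between vehicle and fresh cells, 7 of the 9 genes were called, 4 higher (H2afz, H2afx, H2afj, H2afy) and 3 lower (H2afv, H3f3a, H3f3b), where 67% of all genes were called (32% higher and 35% lower). Groups did not overlap for 6 of 9, against 67.6% of all genes, and the median was 0.25, against -0.03 over all genes. Between Tubastatin A and fresh cells, 8 of 9 were called, all lower, where 64.9% of all genes were called (29.8% higher and 35.2% lower). Groups did not overlap for 7 of 9, against 61.3% of all genes, and the median was -0.71, against -0.03. H3f3b differed most, by -1.70 ± 0.23 (SE; limma adjusted p = 3.9e-05), followed by H3f3a at -1.39 (limma adjusted p = 9.1e-05), H2afv at -1.24 and H2afx at -0.92 (limma adjusted p = 0.0010). The smaller differences were -0.71 for H2afz (limma adjusted p = 0.020), -0.52 for H2afy (0.00088), -0.50 for H1f0 (0.0033) and -0.44 for H2afj (0.037). Of these, H2afz was not called without Tubastatin A replicate 3 (-0.66) or fresh replicate 2 (-0.37), and H2afj was not called without Tubastatin A replicate 1 (-0.36) or 4, vehicle replicate 2, or fresh replicate 2 (-0.23). In the fit of those 2 groups alone (limma adjusted p = 0.071) and under median-of-ratios scaling (0.070) H2afj was not called, and with the upper quartile neither H2afj (0.17) nor H2afz (0.056) was. The comparisons share groups, so their values are set side by side only.

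Differences from fresh cells depend on the scaling. Scaling each library to an equal sum of RPKM by itself moved all RPKM by 0.60 on the log2 scale for vehicle minus fresh. For Tubastatin A minus fresh it moved them by 0.72. Only 4 of the 9 genes were then called between Tubastatin A and fresh cells: H1fx higher, at 0.81, and H2afv, H3f3a and H3f3b lower. H1f0, H2afy, H2afz and H2afj then stood at 0.21, 0.15, 0.01 and 0.19, none of them called, and H2afx at -0.21, no longer called (limma adjusted p = 0.27). Between vehicle and fresh cells 8 of the 9 were then called, 6 higher and 2 lower: H1f0 and H1fx were called higher, at 0.38 and 0.74, and H3f3a was no longer called, at -0.37. Under that scaling 7004 genes of the table were higher and 2481 lower between Tubastatin A and fresh cells, against 3811 and 4503 in the authors' scaling; between vehicle and fresh cells it was 6280 and 2892, against 4096 and 4484. Scaling by reads alone gave nearly these values. The lower H3f3b and H2afv levels in both cultures, and the 4 calls between Tubastatin A and vehicle, were kept under all 5 scalings.

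**Figure D5:**
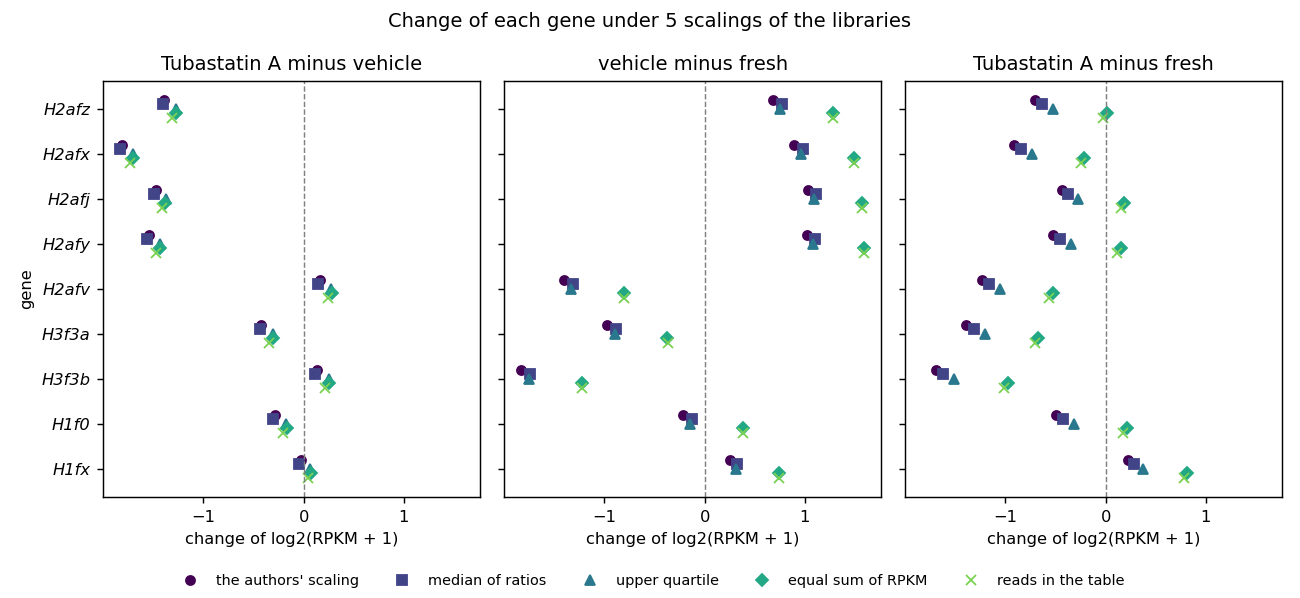
Difference of log2(RPKM + 1) for each gene under 5 scalings of the libraries, in the 3 comparisons. Markers for 1 gene lie close together between Tubastatin A and vehicle; against fresh cells, equal sum and reads alone lie to the right of the other 3.

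The 4 genes that were lower under Tubastatin A stood beside genes of DNA replication and mitosis. In a list of 12 such genes, all 12 were called lower in Tubastatin A than in vehicle cultures (median -3.46) and all 12 higher in vehicle than in fresh cells (median 2.40). Of all genes, 29.7% were called lower in the first comparison and 32% higher in the second. The summed RPKM of the 12 genes was 85.6 to 108.8 in Tubastatin A libraries, 1130 to 1433 in vehicle libraries and 209.0 to 274.4 in fresh libraries. Mcm5, of the replicative helicase, averaged 1.86 ± 0.394 RPKM under Tubastatin A, 119 ± 11.6 in vehicle and 10.9 ± 1.15 in fresh cells (SD, n = 4, 3 and 3). Between the cultures each of the 12 genes stood at -2.55 or further from 0 on the log2 scale, more than any of the 9 variants. The part of the share of cycling cells in the variants' levels was not tested.

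Genes that place histones were described by lists. Among 11 genes of replication-coupled deposition, 10 were called lower in Tubastatin A than in vehicle cultures and 0 higher (median -2.00). Of all genes 29.7% were called lower there. Asf1b, a chaperone that hands H3-H4 to the assembly factor CAF-1, averaged 1.90 ± 0.557 RPKM under Tubastatin A, 59.4 ± 8.63 in vehicle and 5.22 ± 1.65 in fresh cells (SD, n = 4, 3 and 3), and Chaf1b, a subunit of CAF-1, averaged 1.14 ± 0.203 RPKM under Tubastatin A, 32.7 ± 4.14 in vehicle and 3.08 ± 0.963 in fresh cells. Of the 8 genes of H3.3 deposition, 1 was called higher and 4 lower in Tubastatin A than in vehicle cultures (median -0.14), a share near the 59.3% of all genes. With equal sums of RPKM it was 1 higher and 2 lower, as it was without Tubastatin A replicate 1, 2 or 4 or vehicle replicate 3, and without vehicle replicate 2 it was 0 higher and 2 lower. Dek, a chaperone that holds H3.3, averaged 33.6 ± 2.86 RPKM under Tubastatin A, 94.9 ± 13.7 in vehicle and 89.6 ± 16.9 in fresh cells. Ubn1, a subunit of the HIRA complex, was the 1 gene higher under Tubastatin A, at 8.45 ± 1.04 RPKM, against 5.76 ± 1.14 in vehicle and 31.3 ± 5.76 in fresh cells, and Hira itself averaged 1.03 ± 0.104 RPKM under Tubastatin A, 1.35 ± 0.193 in vehicle and 0.529 ± 0.0435 in fresh cells. Between vehicle and fresh cells 2 of these 8 genes were called higher and 2 lower, where 67% of all genes were called. With equal sums of RPKM it was 6 higher and 1 lower.

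Of 24 genes for complexes that exchange H2A.Z, 23 were measured, and 4 were called higher and 11 lower in Tubastatin A than in vehicle cultures (median -0.28), again a share near the 59.3% of all genes. In vehicle against fresh cells 12 were called higher and 4 lower, where 67% of all genes were called. Ruvbl2, an ATPase of several of these complexes, averaged 88.1 ± 2.77 RPKM under Tubastatin A, 131 ± 7.17 in vehicle and 22.7 ± 2.96 in fresh cells. Vps72, the SRCAP and TIP60 subunit that binds H2A.Z, averaged 21.0 ± 1.14 RPKM under Tubastatin A, 36.2 ± 1.98 in vehicle and 27.8 ± 4.50 in fresh cells, and differed by -0.76 between the cultures (limma adjusted p = 0.00015). Yeats4, a reader of acetylated histone tails in the same complexes, differed by -1.22 (limma adjusted p = 8.8e-05). All 7 genes of FACT and other H2A-H2B chaperones were called lower in Tubastatin A than in vehicle cultures (median -1.08). All 7 were called higher in vehicle than in fresh cells (median 1.30). Of all genes 29.7% were called lower in the first comparison and 32% higher in the second. Leaving out 1 library gave 5 to 7 calls among these chaperones between the cultures. Npm1, nucleophosmin, averaged 137 ± 5.58 RPKM under Tubastatin A, 379 ± 32.7 in vehicle and 131 ± 44.0 in fresh cells. Ssrp1, a FACT subunit, differed by -1.08 between the cultures (limma adjusted p = 1.7e-05).

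Of 13 genes that phosphorylate H2A.X, read the mark or remove it, 2 were called higher and 7 lower in Tubastatin A than in vehicle cultures (median -0.24). Of all genes 59.3% were called there. With genes of a mean log2(RPKM + 1) under 1 left out it was 1 higher and 4 lower. Atm, a kinase for H2A.X at breaks, averaged 0.855 ± 0.165 RPKM under Tubastatin A, 1.85 ± 0.170 in vehicle and 0.232 ± 0.0735 in fresh cells, and Mdc1, which binds phosphorylated H2A.X, averaged 0.663 ± 0.185 RPKM under Tubastatin A, 1.99 ± 0.347 in vehicle and 0.941 ± 0.243 in fresh cells. Eya3, a phosphatase for the H2A.X tyrosine mark, was higher under Tubastatin A, by 0.52 (limma adjusted p = 0.0012). Of the other histone variants on the list, 3 of 9 were measured. Cenpa, the centromeric H3 variant, averaged 0.533 ± 0.184 RPKM under Tubastatin A, 3.35 ± 0.704 in vehicle and 1.72 ± 0.182 in fresh cells, and H2afy2, for macroH2A2, averaged 1.21 ± 0.176 RPKM under Tubastatin A, 4.96 ± 0.939 in vehicle and 0.626 ± 0.154 in fresh cells. Both were lower in Tubastatin A than in vehicle cultures (limma adjusted p = 1.7e-06 and 2.4e-06), as H2afy was.

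The replication-coupled histone genes were measured at low levels in these libraries of polyadenylated RNA. Of 31 such genes, 2 were called higher and 21 lower in Tubastatin A than in vehicle cultures (median -0.35), where 59.3% of all genes were called (29.6% higher and 29.7% lower). With genes of a mean log2(RPKM + 1) under 1 left out it was 2 higher and 3 lower, and with voom on recovered reads 2 higher and 9 lower. Between vehicle and fresh cells 14 were called higher and 2 lower (median 0.25), while a larger share of all genes, 67%, was called (32% higher and 35% lower). It was 2 higher and 2 lower with those low genes left out and 3 higher and 2 lower with voom on recovered reads. The 2 lower ones among all 31 were Hist1h1c and Hist1h2bc, an H2B gene that averaged 8.99 ± 1.36 RPKM under Tubastatin A, 6.47 ± 1.66 in vehicle and 48.0 ± 9.56 in fresh cells (SD, n = 4, 3 and 3).

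The genes most like each variant over the 10 libraries, by Pearson's r of log2(RPKM + 1) among 3348 genes with a mean of at least 4, differed between the groups of variants. For H2afx they were Alyref, Pcna and Cks1b (r = 0.991, 0.989 and 0.985), for H2afz Prelid3b, Alyref and Hat1 (0.988, 0.984 and 0.983), for H2afy Rnf187, Stmn1 and Dtymk (0.992, 0.992 and 0.990) and for H2afj Smyd2, Cenpx and Nudt9 (0.988, 0.986 and 0.985). Alyref was thus among the 3 most like both H2afx and H2afz. For H3f3b they were Ube2d3, Rbm7 and Gal (0.997, 0.995 and 0.992), for H2afv Gal, Ggnbp2 and Tgif1 (0.986, 0.983 and 0.981) and for H3f3a Chmp2a, S100a16 and Slc25a3 (0.984, 0.983 and 0.980). H1f0 was closest to Stim2, Plcb3 and Cx3cl1 (0.967, 0.967 and 0.958), and no gene followed H1fx closely, with Ube2e3, Hdac2 and Pls3 at 0.741, 0.729 and 0.649. The libraries fall into 3 groups that share treatment and scaling, so these values describe the group pattern and little else.

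Hdac6, the deacetylase that Tubastatin A inhibits, averaged 6.60 ± 0.717 RPKM under Tubastatin A, 6.16 ± 0.313 in vehicle and 7.69 ± 0.916 in fresh cells (SD, n = 4, 3 and 3), with a difference of 0.08 between the cultures (limma adjusted p = 0.58). Antisense or overlapping genes share exon bases with 6 of the 9 variants, from 24 to 638 bases, and whether strand was used in counting is not given in the sources used here.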

How the data were processed

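The deposited values were RPKM per gene, on log2(RPKM + 1) for every test here. Per the submitters' processing notes the authors used Trim Galore, STAR, featureCounts of Subread and edgeR with the build mm10, without versions or settings, and per the labels RNA (5 ng) was copied with SMART-Seq v4 and read as pairs of 150 bp. Whole reads, within 0.05 of a whole number in all 10 libraries, were recovered for 12166 genes (95.0%) by matching 12703 symbols to GENCODE M21, and the table's library sizes were already scaled. Nothing was filtered out.

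All 12803 genes were fitted by limma 3.58.1 with a variance trend in R 4.3.3, with a pseudocount of 1 RPKM and the 3 groups in 1 model, and p-values (two-sided) were adjusted by Benjamini-Hochberg over all genes. Each library was 1 animal. The fit was also run on simulated data with far fewer changed genes than were called here. Its outcome is not given and is not used for any result. Tables and figures used Python 3.11.15 with matplotlib 3.10.9, scipy 1.17.1, pandas 2.3.3 and numpy 2.4.6. The genes named were the 9 variants, up to 4 genes of lowest p in each of 8 lists and comparison, the 3 genes most like each variant by r, and Pax7, Myod1, Vcam1, Mki67 and Hdac6; only some are printed. The variants and lists were chosen with earlier results of these data known. Alternatives were other pseudocounts (0.1 and 5), a filter, 4 scalings, the groups compared alone, no trend, a replicate block, limma voom on recovered reads, a threshold of 0.01 and leaving out each library. Amino acid sequences were not used here.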

Additional observations from a re-analysis of the deposited data

Results flagged for a closer look

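The summed RPKM of the 31 replication-coupled histone genes was 25.0 in Tubastatin A replicate 2, against 28.9 to 29.4 in the other 3 Tubastatin A libraries, and this library lay far from the others relative to the range of its group. It was 1 of 21 values checked in this way, and chance flags about 1 in 20. The same library held the high myofibre marker sum of 383 RPKM, and the part of that in this value was not tested.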

How the results depend on the processing

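Under the pseudocounts, the filter, the scalings, the fit of the compared groups alone, the fit without trend, the replicate block, a threshold of 0.01 and voom on recovered reads (11878 genes, minimum mean of 10 reads), the 9 variants gave 4 to 6 calls between Tubastatin A and vehicle, 6 to 8 between vehicle and fresh, and 6 to 8 between Tubastatin A and fresh, except 4 (1 higher and 3 lower) with equal sums of RPKM and 4 (1 higher and 3 lower) with reads alone. The 4 lower calls between Tubastatin A and vehicle were kept in every setting run. Signs turned with the scaling: H1fx between Tubastatin A and vehicle was 0.073 with equal sums, 0.068 with the upper quartile and 0.039 with reads alone, and H1f0 between vehicle and fresh was 0.38 and 0.39 with equal sums and reads alone, both called. With equal sums and reads alone, Tubastatin A minus fresh was 0.21 and 0.18 for H1f0, 0.15 and 0.12 for H2afy, 0.19 and 0.15 for H2afj, 0.15 and 0.12 for Hist1h1c, 0.32 and 0.28 for Vps72, 0.42 and 0.38 for Set, and 0.094 and 0.077 for Mdc1, and for H2afz it was 0.00998 with equal sums. Equal sums and reads alone by themselves moved all RPKM by 0.72 and 0.69 on the log2 scale for Tubastatin A minus fresh. Leaving out 1 library gave 4 to 6 calls among the 9 variants between Tubastatin A and vehicle, 6 to 8 between vehicle and fresh and 6 to 8 between Tubastatin A and fresh, and over all genes 6588 to 8341, 7868 to 8912 and 7768 to 8540. It turned the sign of uncalled values of H1fx (Tubastatin A minus vehicle, -0.206 to 0.165), Dek (vehicle minus fresh, -0.071 to 0.207) and Npm1 (Tubastatin A minus fresh, -0.124 to 0.369).

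The labels give groups the same replicate numbers, and each library was made from 1 animal. Deviations of same-numbered libraries correlated at -0.19 to 0.39 over genes, and those of differently numbered libraries at -0.52 to 0.41. Between Tubastatin A and vehicle libraries, same numbers gave 0.026 to 0.39 and different numbers -0.38 to 0.11. Whether a number marks a shared animal or sort day is not given in the sources used here, and these values do not settle it. With a replicate block, without Tubastatin A replicate 4, the 9 variants gave 4 calls between Tubastatin A and vehicle, 7 between vehicle and fresh and 7 between Tubastatin A and fresh, where H2afj was lost. Over all genes the block gave 7137, 8503 and 7894 calls in these comparisons, and voom on recovered reads gave 7557, 8228 and 7938. Adding 1 RPKM to both genes of a pair moved most log2 ratios by little, to -1.55 for H2afz/H2afv between Tubastatin A and vehicle. For H2afj/H2afx it moved the difference from 0.22 to 0.34 between Tubastatin A and vehicle. Between vehicle and fresh cells the H2afj/H2afx difference moved from 0.22 to 0.14. With H1fx at 154 to 406 reads per library, its small differences are the least certain of the 9.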
